A study of Mus musculus with 4 samples.

Results

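The genes described here are 10 that define or serve T helper 2 (Th2) cells in the mouse: the transcription factors Gata3, Stat6, Maf, Nfil3 and Pparg, the interleukin-4 receptor chain Il4ra, and the receptors Il1rl1, Il17rb, Crlf2 and Ptgdr2. They are a list of gene names, drawn up when earlier results of these data were known, and the rule uses no measured value. Of the 10, 9 had a row among the 26207 genes measured, and Ptgdr2, the prostaglandin D2 receptor of Th2 cells, is not analysed here. The study sequenced RNA of Th2 cells, with mouse spleen as the stated tissue, in 2 libraries treated with phosphate-buffered saline (PBS) as the control and 2 treated with 10 µM dopamine, a catecholamine neurotransmitter. For both groups alike, the mouse strain, sex, age, genotype, culture conditions and length of treatment were not given in the sources used here. Whether replicate libraries stem from different mice or cultures is likewise not stated. The p-values therefore cover only the variation among these 4 libraries, part of which may be technical. The main test also pools that spread across genes.

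Th2 cells are CD4 helper T cells that make IL-4, IL-5 and IL-13. IL-4 binds a receptor built on the IL-4Rα chain, which activates STAT6, and STAT6 induces GATA3, the factor that holds the Th2 cytokine genes open. Tissues call on such cells with the alarmins IL-33, IL-25 and TSLP, which are released by damaged or stimulated epithelium and are read by the receptors ST2 (the product of Il1rl1), IL-17RB and TSLPR (the product of Crlf2). In lung and gut these receptors also sit on type 2 innate lymphoid cells, mast cells and basophils.

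The control libraries are called PBS A and B and the treated libraries dopamine A and B, where the letters only name columns. They held between 5717408 and 14167357 reads assigned to genes, and PBS A was the shallowest. Values are the authors' normalized read counts, as mean ± SD with n = 2 libraries per group. A log2 fold change is the mean of log2(value + 1) with dopamine minus that with PBS, given with its standard error (SE), and it understates the change of low genes. A gene was called when limma's Benjamini-Hochberg adjusted p over all genes was under 0.05. Among abundant genes, meaning those whose mean value was 100 or more, the median difference between the groups was 0.198 on the log2 scale in the authors' scaling, so small increases are to be read against that shift. Transcripts of T cells were present in every library. Cd4, the helper T cell co-receptor, had 4253 ± 24.3 with PBS and 4668 ± 115 with dopamine (limma adjusted p = 0.122). Cd3e, a chain of the T cell receptor complex that helper and other T cells share, had 379 ± 48.7 and 445 ± 7.65 (limma adjusted p = 0.121). These do not mark the Th2 state, for which Gata3, Il4, Il5 and Il13 were read in every library. Tbx21, the factor of T helper 1 cells, was read in every library too, and per kb of exon the ratio of Gata3 to Tbx21 was 0.222 and 0.225 with PBS and 0.104 and 0.111 with dopamine, so the lineage factor of the labelled type was the lower of the pair throughout.

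With dopamine, 5 of the 9 measured genes were higher, 2 were lower and 2 were not called. The factors Stat6, Maf, Nfil3 and Pparg and the TSLP receptor chain Crlf2 rose, whereas the IL-33 receptor Il1rl1 and the IL-25 receptor Il17rb fell. Gata3 and Il4ra did not pass the test. Many genes differed between the groups, so these counts stand beside a high background. Of all 26207 genes, 21.3% were called, 14.3% higher and 7.00% lower. Of the 11611 genes averaging 20 or more, 40.6% were called, 31.4% higher and 9.16% lower. The dopamine and PBS libraries did not overlap for 7 of the 9 genes, against 58.9% of all genes and 71.8% of those averaging 20 or more. The median log2 fold change of the 9 was 0.31, against -0.08 over all genes and 0.16 over genes averaging 20 or more. In the authors' deposited table, which lists a DESeq2 adjusted p for 12997 genes and calls 25.1% of them, 5 of the 9 were called. With edgeR on recovered reads, which tested 15329 genes and called 34.0%, all 7 were called.

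**Figure D1:**
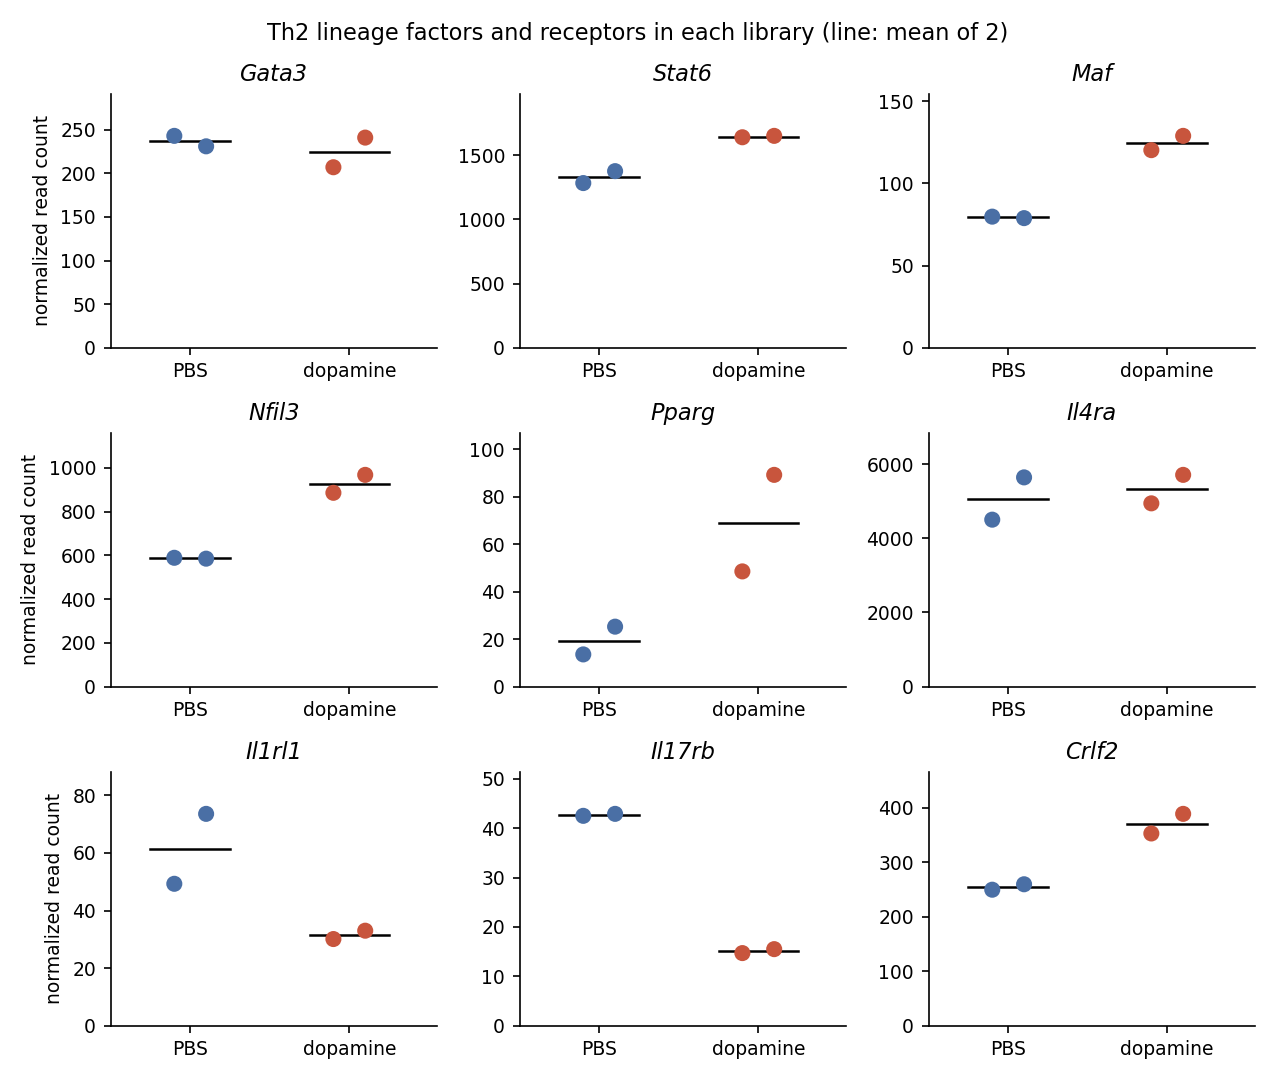
Normalized read count (y axis, from 0) of the 9 measured genes in each PBS library (blue) and each dopamine library (red), with the mean of each group as a line. The groups overlap for Gata3 and Il4ra, and both dopamine points lie above both PBS points for Stat6, Maf, Nfil3, Pparg and Crlf2 and below them for Il1rl1 and Il17rb.

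The promoters of the genes that fell are shown here because GATA factors, among them the lineage factor GATA3, bind GATA motifs. The letters do not tell these factors apart. Gata3 was not called. Gata2, picked from the basophil and mast cell marker list after its values were seen, fell from 31.1 ± 7.99 to 9.87 ± 0.225 (-1.54, limma adjusted p = 0.00142). The part of either factor in these changes was not tested. The windows hold the 250 bases before each annotated start (RefSeq, GRCm38.p6), and 8 of the 9 measured genes had at least 1. Il1rl1, on chromosome 1, has a start with its window at chr1:40429320-40429569 and another at chr1:40439379-40439628, both on the plus strand. The Il17rb window lies at chr14:30008897-30009146 on the minus strand. Sequences run 5′ to 3′ on the gene's strand, and capitals mark the GATA letters searched, which are AGATAA and TGATAA and the forms ending in G instead (AGATAG and also TGATAG), on either strand.
Il1rl1, upstream start: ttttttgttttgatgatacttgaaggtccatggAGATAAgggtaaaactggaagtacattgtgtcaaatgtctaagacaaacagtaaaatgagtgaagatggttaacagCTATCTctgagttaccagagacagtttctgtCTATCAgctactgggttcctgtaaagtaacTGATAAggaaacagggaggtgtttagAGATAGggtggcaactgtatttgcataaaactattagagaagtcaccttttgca
Il1rl1, downstream start: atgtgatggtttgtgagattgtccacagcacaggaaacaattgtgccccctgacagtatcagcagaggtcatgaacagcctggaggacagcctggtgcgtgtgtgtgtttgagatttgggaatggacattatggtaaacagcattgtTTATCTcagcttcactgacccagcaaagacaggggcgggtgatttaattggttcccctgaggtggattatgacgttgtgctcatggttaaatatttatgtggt
Il17rb: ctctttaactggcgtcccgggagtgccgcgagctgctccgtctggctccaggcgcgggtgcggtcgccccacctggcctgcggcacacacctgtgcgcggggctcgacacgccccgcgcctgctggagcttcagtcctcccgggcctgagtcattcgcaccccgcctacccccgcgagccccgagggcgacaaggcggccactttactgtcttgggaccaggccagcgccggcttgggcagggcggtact
The upstream Il1rl1 window held 5 matches, at 217, 141, 110, 80 and 54 bases before the start. The downstream window held 1, at 103 bases before its start, and the Il17rb window held 0. The GC content was 37.6% in the upstream Il1rl1 window, 46.4% in the downstream window and 72% in the Il17rb window. The letters searched are mostly A and T, so matches also depend on base composition. Of 32851 promoter windows of this length, not matched for base composition, 8718 (26.5%) had at least 1 match and 14 (0.0426%) had 5 or more. The same windows were searched on both strands for the STAT6-type palindrome TTCNNNNGAA (5.85% of all windows), the general STAT palindrome TTCNNNGAA (7.02%) and the cyclic AMP response element TGACGTCA (1.55%). No window of the measured genes held any of these 3 motifs, and no window other than those of Il1rl1 held the GATA letters. These are matches of letters within a short window and were not measured as binding sites. Gene-level counts do not separate the Il1rl1 starts.

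Among the transcription factors, Gata3, the master regulator of the lineage (chr2:9857078-9890034, minus strand, mm10), had 243 and 231 in PBS A and B and 207 and 241 in dopamine A and B. Dopamine A was the lowest library and dopamine B lay within the PBS range, so the groups overlapped. The means were 237 ± 8.70 and 224 ± 24.1, a log2 fold change of -0.08 (SE 0.13, 95% interval -0.34 to 0.17, limma adjusted p = 0.69). None of 15 alternatives called Gata3, and its fold change ranged from -0.28 to 0.02. An antisense gene, Gm13256, shares 155 exon bases with it, and had 11.3 ± 0.824 and 5.31 ± 3.40 (limma adjusted p = 0.163), far below Gata3 itself.

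Stat6, the transcription factor that IL-4 activates (chr10:127642986-127660957, plus strand), had 1283 and 1376 with PBS and 1640.1 and 1651 with dopamine. Both dopamine libraries lay above both PBS libraries. The means of 1329 ± 66.1 and 1645 ± 7.49 differed by a log2 fold change of 0.31 (SE 0.08, limma adjusted p = 0.00211). This was the smallest of the called changes, and it was close to the shift of abundant genes given above. When libraries were scaled on abundant genes, it fell to 0.11 (limma adjusted p = 0.246), with edgeR's upper-quartile scaling it was 0.12 (adjusted p = 0.168), and without PBS A it was 0.26 (limma adjusted p = 0.0895).

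Maf encodes c-MAF, which activates the Il4 promoter (chr8:115682942-115707794, minus strand). It had 79.8 and 78.9 with PBS and 120.3 and 129 with dopamine. The groups did not overlap, and the PBS libraries lay closer together than the dopamine libraries. The mean of 79.4 ± 0.653 with PBS rose to 125 ± 6.22, which is 0.64 on the log2 scale (SE 0.17, limma adjusted p = 0.00416). The call was lost with DESeq2 on recovered reads (0.65, adjusted p = 0.0669), in the authors' deposited table (0.65, adjusted p = 0.0692) and without dopamine B (0.59, limma adjusted p = 0.0869). Its size changed little in those fits.

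Nfil3 encodes a basic leucine zipper repressor known for roles in cytokine expression of type 2 T cells and in innate lymphoid development (chr13:52967209-52981073, minus strand). Its values were 589 and 585 with PBS and 886 and 968 with dopamine. It showed the smallest adjusted p of the 9 genes, with means of 587 ± 2.90 and 927 ± 58.3 and a log2 fold change of 0.66 (SE 0.09, limma adjusted p = 1.85e-07). All 15 alternatives called it higher, at 0.46 to 0.72.

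Pparg encodes PPARγ, a lipid-sensing nuclear receptor that Th2 cells use for effector function in tissue (chr6:115360951-115490399, plus strand). It had 13.6 and 25.3 with PBS and 48.6 and 89.3 with dopamine. Its increase was the largest of the 9 genes, and the libraries within each group also differed widely. Means were 19.4 ± 8.27 and 69.0 ± 28.8, a ratio of 3.55 and a log2 fold change of 1.77 (SE 0.30, 95% interval 1.18 to 2.37, limma adjusted p = 7.66e-06). The SE and interval rest mostly on the spread pooled across genes (42.4 prior degrees of freedom) rather than on that of Pparg itself. The Pparg values rest on 8 and 33 reads in the PBS libraries and 63 and 92 in the dopamine libraries. All 14 alternatives that tested Pparg called it higher, at 1.34 to 2.21.

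Among the receptors, Il4ra, the signalling chain for IL-4 and IL-13 (chr7:125552120-125579474, plus strand), had 4503 and 5643 with PBS and 4943 and 5711 with dopamine. The groups overlapped and each spanned most of the same range. The means were 5073 ± 806 and 5327 ± 543, a log2 fold change of 0.08 (SE 0.07, 95% interval -0.07 to 0.22, limma adjusted p = 0.501). No alternative called it, and its sign depended on the alternative, with 8 positive and 7 negative values between -0.13 and 0.24. Its partner chain Il2rg, the common gamma chain, had 1842 ± 113 and 1829 ± 145 (limma adjusted p = 0.938) in the authors' scaling, and with scaling on abundant genes it was called lower, at -0.21 (limma adjusted p = 0.0231). Per kb of exon, the ratio of Il4ra to Il2rg was 1.02 and 1.17 with PBS and 1.14 and 1.18 with dopamine.

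Il1rl1 encodes ST2, the IL-33 receptor, made as a membrane form and as a soluble decoy that gene counts do not separate (chr1:40429570-40465415, plus strand). It had 49.3 and 73.6 with PBS and 30.1 and 33.0 with dopamine. Both dopamine libraries lay below both PBS libraries, and PBS B was the highest. The mean of 61.4 ± 17.2 with PBS fell to 31.5 ± 2.07, a ratio of 0.514 and a log2 fold change of -0.91 (SE 0.25, 95% interval -1.42 to -0.41, limma adjusted p = 0.00554). It rests on 29 and 96 reads with PBS and 39 and 34 with dopamine. Without PBS B it was -0.63 (limma adjusted p = 0.156), with DESeq2 on recovered reads -0.99 (adjusted p = 0.0646), and in the authors' deposited table -0.99 (adjusted p = 0.067), so the call depended on that library and on the test. Il1rap, the shared accessory chain of the IL-33 receptor, had 159 ± 27.5 and 183 ± 22.9 (limma adjusted p = 0.346). Per kb of exon, the ratio of Il1rl1 to Il1rap was 0.455 and 0.869 with PBS and 0.298 and 0.273 with dopamine, with no overlap between groups.

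Il17rb encodes the chain that binds IL-25 (chr14:29996135-30008896, minus strand). It had 42.5 and 42.9 with PBS and 14.7 and 15.5 with dopamine. The libraries of each group lay close together and far from those of the other group. The mean fell from 42.7 ± 0.309 to 15.1 ± 0.621, a ratio of 0.354 and a log2 fold change of -1.44 (SE 0.31, 95% interval -2.06 to -0.82, limma adjusted p = 3.51e-04). All 14 alternatives that tested Il17rb called it lower, at -1.68 to -1.25, and the authors' deposited table gives -1.50 with an adjusted p of 0.02. The counts behind it were low, at 25 and 56 reads with PBS and 19 and 16 with dopamine. Il17ra, its co-receptor chain, was also lower, at 894 ± 58.5 and 741 ± 62.9 (log2 fold change -0.27, limma adjusted p = 0.0249), but it was not called with DESeq2 on recovered reads (-0.28, adjusted p = 0.0636), without PBS A, without PBS B or without dopamine A. Per kb of exon, the ratio of Il17rb to Il17ra was 0.116 and 0.107 with PBS and 0.0492 and 0.0462 with dopamine. Actr8, a neighbour on the other strand that shares 141 exon bases with Il17rb, had 409 ± 13.2 and 443 ± 14.5 (limma adjusted p = 0.464). The counting's strand setting is not given in the sources used here.

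Crlf2 encodes the chain that binds TSLP (chr5:109554709-109558993, minus strand). It had 249.7 and 259.7 with PBS and 353 and 389 with dopamine. Both dopamine libraries lay above both PBS libraries. The mean rose from 255 ± 7.09 to 371 ± 26.0, a ratio of 1.46 and a log2 fold change of 0.54 (SE 0.12, 95% interval 0.31 to 0.77, limma adjusted p = 3.75e-04), and all 15 alternatives called it higher, at 0.34 to 0.61. Il7r, the IL-7 receptor chain that pairs with it to bind TSLP, had 143 and 103 with PBS and 353 and 404 with dopamine. That partner rose from 123 ± 27.8 to 379 ± 35.8 (log2 fold change 1.63, SE 0.14, limma adjusted p = 8.92e-13). Per kb of exon, the ratio of Crlf2 to Il7r was 5.46 and 7.83 with PBS and 3.11 and 3.01 with dopamine, so the TSLP-binding chain stayed the more abundant transcript in every library. The alarmin receptors thus moved in different directions: Crlf2 was higher, and Il1rl1 and Il17rb were lower.

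**Figure D2:**
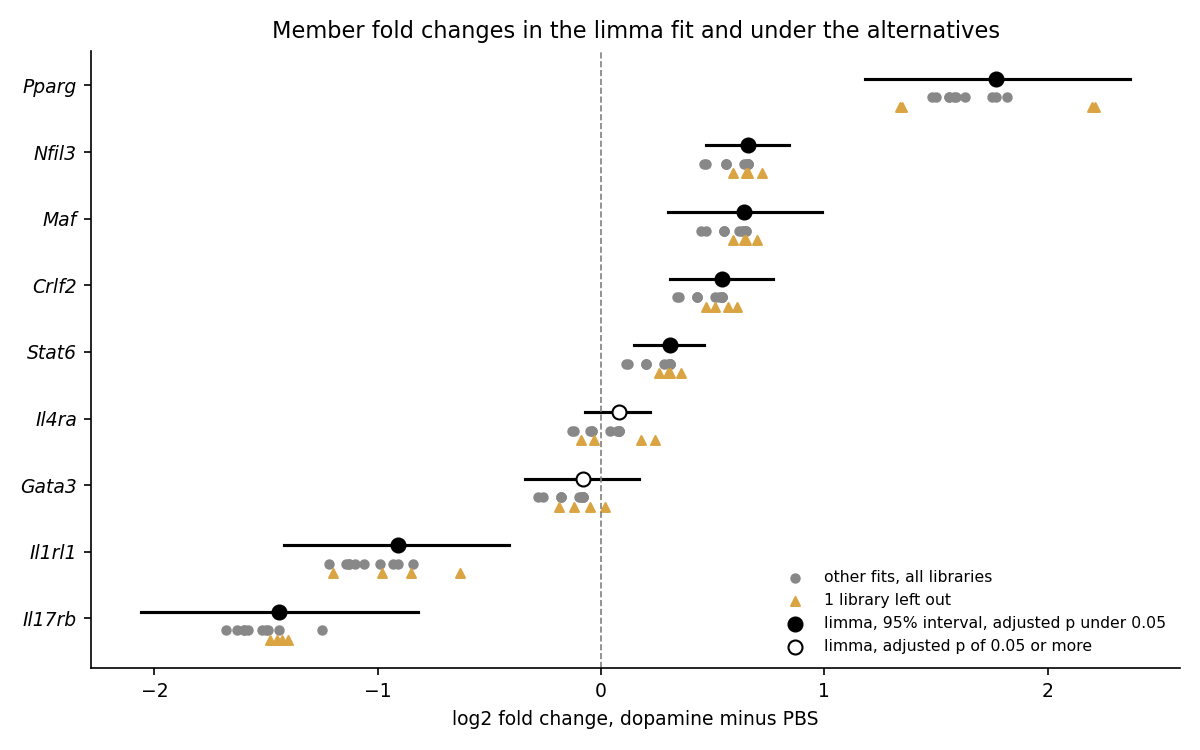
Log2 fold change, dopamine minus PBS (x axis), of each measured gene in the limma fit (black, with its 95% interval; open where not called), in the other fits on all libraries (grey dots) and with 1 library left out (triangles). Il17rb stays between -1.68 and -1.25 and Pparg between 1.34 and 2.21, whereas Gata3 and Il4ra have values on both sides of 0.

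On the scale of normalized read count per kb of exon (exon lengths from GENCODE M21), Il4ra had the highest level, at 845 with PBS and 888 with dopamine. Nfil3 had 289.9 and 457, Stat6 302 and 374, Crlf2 170.4 and 248, and Gata3 59.5 and 56.3. The other 4 genes were far lower in both groups: Pparg had 6.58 and 23.4, Maf 9.63 and 15.1, Il17rb 11.5 and 4.07, and Il1rl1 8.91 and 4.58. In the PBS libraries, Nfil3 and Stat6 could not be ordered beyond their spread. With dopamine, Nfil3 lay above Stat6 in both libraries. At the low end the order differed between the groups. With PBS, Il17rb had the highest mean level of the 4 and Pparg the lowest, and with dopamine, Pparg was highest, followed by Maf, with Il1rl1 and Il17rb below both. With PBS, Maf and Il1rl1 overlapped, as did Il1rl1 and Pparg. Il1rl1 exceeded Il17rb in both dopamine libraries by a small margin. The level of Gata3 therefore lay well above the alarmin receptors Il1rl1 and Il17rb but below Crlf2 in every library.

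**Figure D3:**
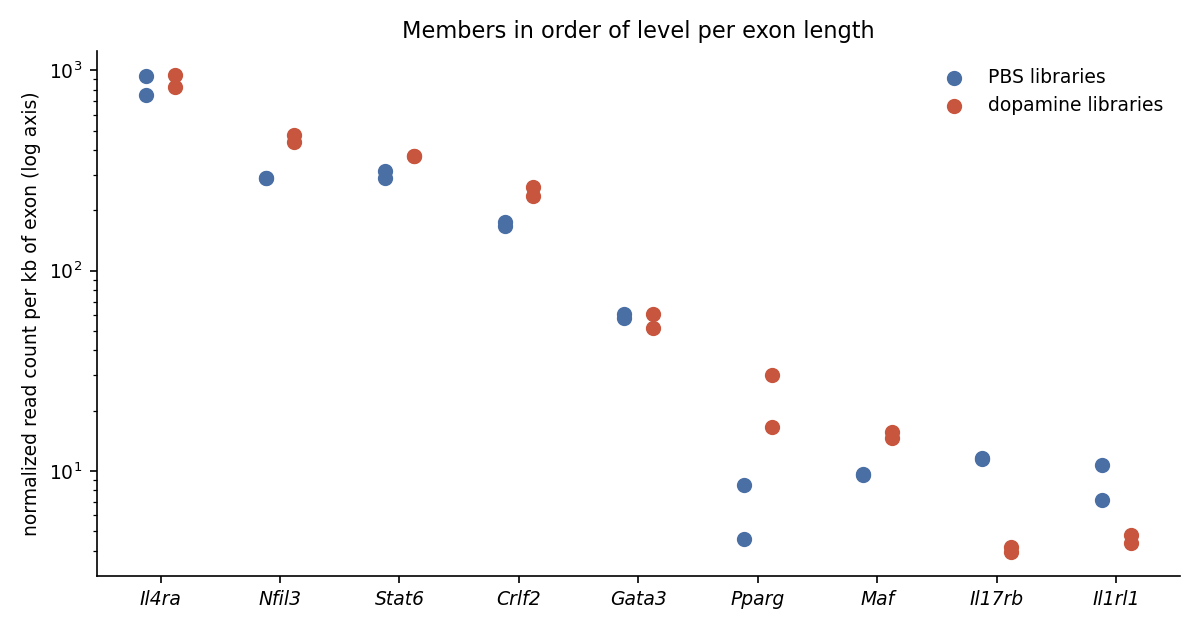
Normalized read count per kb of exon (log axis) of the 9 measured genes in the PBS libraries (blue) and dopamine libraries (red), ordered by mean level. Il4ra is highest in both groups, and Il17rb and Il1rl1 are the 2 lowest with dopamine, at means of 4.07 and 4.58.

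The other genes of these pathways were read from lists written by role, with earlier results of these data known. Of 119 tested, 46 were higher and 10 lower (47.1% called, against 40.6% of genes averaging 20 or more). Their median log2 fold change was 0.26. The split was 33 higher and 23 lower with upper-quartile scaling, and 31 higher and 23 lower with scaling on abundant genes. Among partner transcription factors of Th2 commitment, 12 of 21 were higher and 1 lower. Irf4, which works with NFAT and AP-1 on cytokine genes, rose from 7620.4 ± 142 to 14598 ± 943 (0.94, limma adjusted p = 7.08e-18), the AP-1 subunit Junb from 686 ± 12.4 to 1624 ± 91.0 (1.24, limma adjusted p = 2.81e-16), and Rbpj, the nuclear effector of Notch, from 1015 ± 165 to 2029 ± 6.35 (1.01, limma adjusted p = 4.12e-13). Tcf7, which encodes TCF-1 and promotes early Gata3 expression, fell from 425 ± 51.6 to 312 ± 23.8 (-0.44, limma adjusted p = 0.00294). With upper-quartile scaling or scaling on abundant genes, the counts were 8 higher and 4 lower. The Tcf7 call was lost without PBS B or without dopamine A.

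Genes that oppose the Th2 program were not uniformly lower: 5 of 12 were higher and 2 lower. That is 58.3% called, against 40.6% of genes averaging 20 or more. Tbx21, which encodes T-bet, the factor of T helper 1 cells, rose from 663 ± 31.2 to 1299 ± 86.9 (0.97, limma adjusted p = 2.76e-12). Its relative Eomes rose from 136 ± 4.23 to 289 ± 9.13 (1.08, limma adjusted p = 1.48e-08), and Zbtb32, a repressor that binds GATA3, from 19.3 ± 0.873 to 74.9 ± 9.76 (1.90, limma adjusted p = 1.41e-07). Foxp3, the factor of regulatory T cells, fell from 29.9 ± 3.32 to 12.7 ± 2.81 (-1.19, limma adjusted p = 0.011). Without PBS A 1 of the 12 was called lower, and without PBS B or without dopamine B the count was 0.

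Of genes averaging 20 or more, 40.6% were called. In the receptor lists that share was 35.7% for IL-4, 33.3% for IL-33, 66.7% for IL-25, 28.6% for TSLP and 36.4% for prostaglandin D2. Downstream of the IL-4 receptor, 4 of 14 genes were higher and 1 lower. The STAT-induced feedback inhibitors Cish (465 ± 2.01 to 922 ± 15.0, log2 fold change 0.99) and Socs1 (309.8 ± 41.8 to 475 ± 87.3, 0.61) rose, as did the kinase Tyk2 (0.39), and the PI3 kinase regulatory subunit Pik3r1 fell by 0.30 on the log2 scale. The split was 2 higher and 5 lower with upper-quartile scaling or scaling on abundant genes, and 2 of the 14 were higher without PBS A or without dopamine B. Pik3r1 was not called without dopamine A or without PBS A. In the IL-33 pathway 4 of 12 were higher and 0 lower: Sigirr, an inhibitor of IL-1 family receptors (0.47), the kinase Irak1 (0.56) and the adaptor Myd88 (0.40) rose while Il1rl1 fell. Those counts were 2 higher and 1 lower with scaling on abundant genes, 3 higher and 1 lower with upper-quartile scaling, and 2 higher and 0 lower without dopamine B. In the IL-25 pathway 3 of 6 were higher, namely Traf4 (0.42), Traf3 (0.38) and Traf3ip2, the adaptor Act1 (0.61), but 0 were with upper-quartile scaling, with scaling on abundant genes, or without dopamine B, and 1 was without PBS A. The 1 lower gene was Il17ra. In the TSLP pathway 2 of 7 were higher, Il7r and Cish, and 0 lower, against 2 higher and 2 lower with either of those scalings. Among genes of prostaglandin D2, 2 of 11 were higher and 2 lower: the G protein subunits Gnb1 (0.38) and Gnb2 (0.34) rose, and the phospholipase Pla2g4a (-1.05) and the cyclooxygenase Ptgs1 (-1.34) fell. The number higher was 0 without PBS A or with scaling on abundant genes, and 1 with upper-quartile scaling, without PBS B or without dopamine B, while 3 were lower with either scaling. Ptgdr, the other prostaglandin D2 receptor, was near the detection floor, at 2.38 ± 0.966 and 2.80 ± 2.59 (limma adjusted p = 0.996).

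Of the products of the program, 12 of 19 Th2 cytokine and effector genes were called higher and 0 lower, at a median log2 fold change of 0.90. Among genes averaging 20 or more, 31.4% were called higher. The list was chosen with earlier results of these data known, so its count and median are description only. Il4 had 178 and 151 with PBS and 784 and 723 with dopamine (2.19, SE 0.11, limma adjusted p = 3.82e-20). Il13 had 195 and 209.9 with PBS and 613 and 626 with dopamine (1.61, SE 0.11, limma adjusted p = 7.14e-16). Il5 had 22.1 and 13 with PBS and 49.4 and 51.5 with dopamine (1.51, SE 0.30, limma adjusted p = 1.14e-04). The groups did not overlap for any of these cytokines. Cyp11a1, a steroid-making enzyme that Th2 cells express, rose by 1.64, and Gzma, which encodes the protease granzyme A, by 3.57. With upper-quartile scaling or scaling on abundant genes, the counts were 10 higher and 1 lower.

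Among partners and targets of PPARγ, 3 of 24 were higher and 3 lower, and 18 were not called. The share called was 40.6% among genes averaging 20 or more (31.4% higher and 9.16% lower) and 21.3% among all genes. Whether the targets of PPARγ followed Pparg was not tested. Rxra, which encodes RXRα, the dimer partner of PPARγ, rose from 133 ± 12.5 to 234 ± 24.5 (0.81, limma adjusted p = 1.61e-05). The lipid genes Scd2, a desaturase (0.50), and Fabp5, a fatty acid carrier (0.48), rose. The fatty acid oxidation genes Cpt1a (-0.68) and Acaa2 (-0.48) fell, as did the coactivator Ppargc1a, from 13.8 ± 2.14 to 4.06 ± 2.99 (-1.68, limma adjusted p = 0.024). The Ppargc1a call was lost without PBS A, PBS B or dopamine B, and 5 of the 24 were lower with upper-quartile scaling or scaling on abundant genes.

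**Figure D4:**
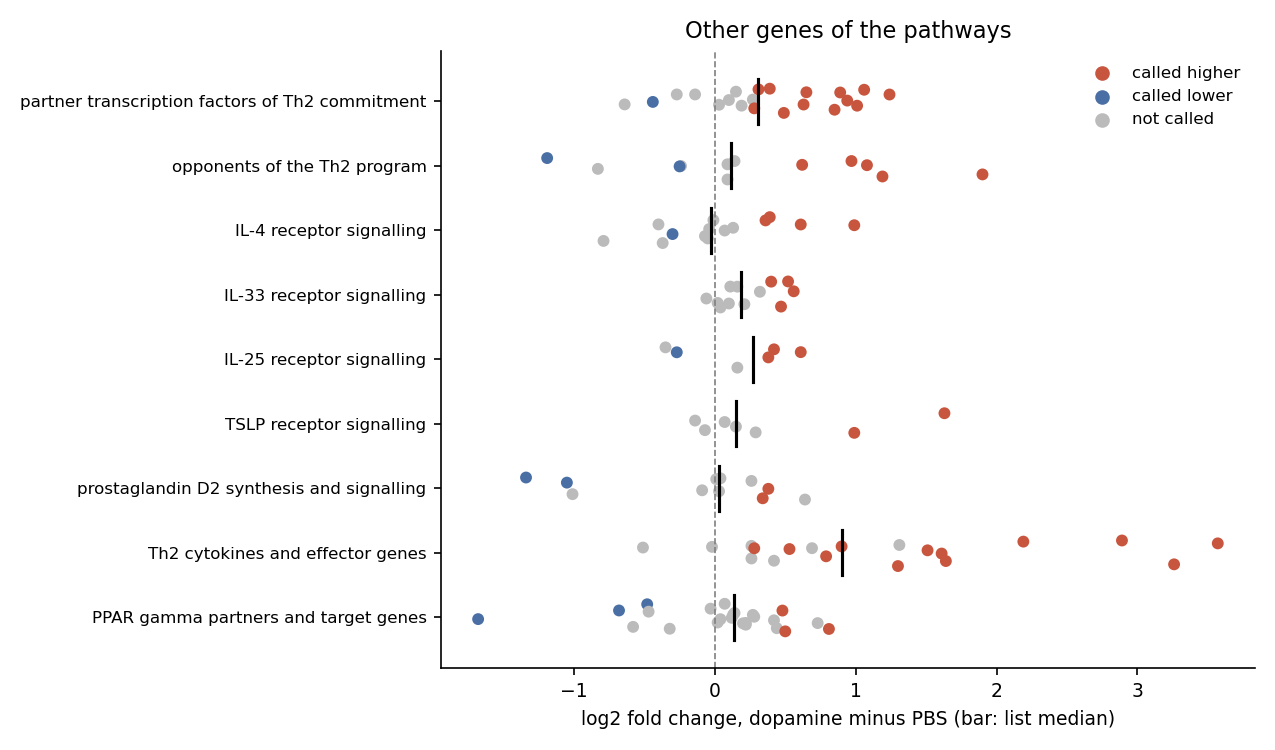
Log2 fold change, dopamine minus PBS (x axis), of the other pathway genes by list, 1 dot per gene: red called higher, blue called lower, grey not called, with the list median as a bar. The cytokine and effector list has the highest median, 0.90, and the IL-4 receptor list has -0.03. The lists were chosen with earlier results of these data known.

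Several of the 9 genes are also expressed outside Th2 cells, and in bulk RNA fewer cells of a type and less RNA per cell cannot be told apart. Il1rl1 and Il17rb are known from basophils, mast cells and type 2 innate lymphoid cells, and Il1rl1 also from regulatory T cells. All 9 measured basophil and mast cell markers were called lower, and none was at 0 in any library. Of all genes 7.00% were called lower, and of those averaging 20 or more 9.16%. Their summed value was 2071 to 2426 with PBS and 615 to 705 with dopamine, and their median log2 fold change was -1.72, beside -0.91 for Il1rl1 and -1.44 for Il17rb. The most abundant were Cpa3, a mast cell and basophil protease (765 ± 119 to 235 ± 61.7), and Mcpt8, a basophil protease (545 ± 55.1 to 122 ± 13). Their part in the lower Il1rl1 and Il17rb was not tested. Of 8 innate lymphoid type 2 markers, 1 was higher and 2 lower (37.5% called, against 21.3% of all genes and 40.6% of those averaging 20 or more). Their median log2 fold change was -0.42. The summed value was 1131 to 1290.2 with PBS and 2000.3 to 2034 with dopamine. Most of that sum was Id2, the gene called higher (893 ± 99.6 to 1759.6 ± 10.8). The genes called lower were Ccr9 (71.0 ± 6.79 to 12.4 ± 4.44) and Arg1 (12.2 ± 2.02 to 3.39 ± 0.668), and Klrg1 was at 0 in dopamine B. Without PBS A, PBS B or dopamine B, 1 of the 8 was lower, and without PBS B 2 were higher. Of 8 regulatory T cell markers, 3 were higher (Il2ra, Tigit and Ikzf2) and 3 lower (Ctla4, Foxp3 and Nt5e), which is 75.0% called. They summed to 3579 to 3788 with PBS and 4339 to 4652 with dopamine. The largest values in that sum were Il2ra (1765 ± 67.4 to 2519 ± 83.9) and Tnfrsf18 (1247 ± 1.95 to 1413 ± 121, not called). Ctla4 fell from 338 ± 62.0 to 164 ± 4.09, and Foxp3 fell as given above. The number lower was 1 without PBS B or without dopamine B, and Foxp3 was not called without PBS A, PBS B or dopamine B, or with DESeq2 on recovered reads.

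In none of the other marker lists were all genes called lower. The share called was 21.3% among all genes and 40.6% among those averaging 20 or more (31.4% higher and 9.16% lower). Only 1 of 7 eosinophil markers (median -0.93) and 1 of 11 macrophage and monocyte markers (median -1.18) had a positive log2 fold change. The other medians were -0.18 for dendritic cell, 1.08 for B cell, -0.04 for CD8 T and NK cell and 0.24 for helper T cell markers. Of 7 eosinophil markers 3 were lower and 0 higher, with a sum of 127 to 183 with PBS and 61.2 to 67.1 with dopamine, Prg3 at 0 in dopamine B and Ear2 at 0 in PBS A. Without PBS A, 0 of the 7 were called. Macrophage and monocyte markers, from cells that are also known to express Pparg, summed to 239.5 to 270.5 and to 186, with 3 of 11 lower, 1 higher, and Fcgr1 and C1qb at 0 in 1 dopamine library each, while Pparg rose. Dendritic cell markers summed to 713 to 847 and 544 to 548 (0 higher and 2 lower of 9), with Cd209a and Siglech at 0 in PBS A. Of these 9, 1 was lower without PBS A or without dopamine A, and 1 was higher without PBS B. B cell markers summed to 188 to 221 and 431 to 442 (4 higher and 0 lower of 9), and CD8 T and NK cell markers to 133 to 148 and 232 to 242 (1 higher and 0 lower of 7). The gene called higher in the CD8 T and NK cell list was Cd8a, from 27.5 ± 4.28 to 109 ± 9.05 (1.96, limma adjusted p = 2.01e-09). Cd8b1 had 73.5 ± 4.21 and 98.1 ± 6.77 (limma adjusted p = 0.106). Helper T cell markers, most of which other T cells share, summed to 28382 to 30552 and 32159.8 to 33879. Of these 10, 5 were higher and 1 lower, Trac, the constant region of the T cell receptor alpha chain (-0.27). Without PBS A, or with either scaling named above, 3 of the 10 were higher, and Trac was not called without PBS B. The part of these lists in the changes of the lineage factors and receptors was not tested.

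**Figure D5:**
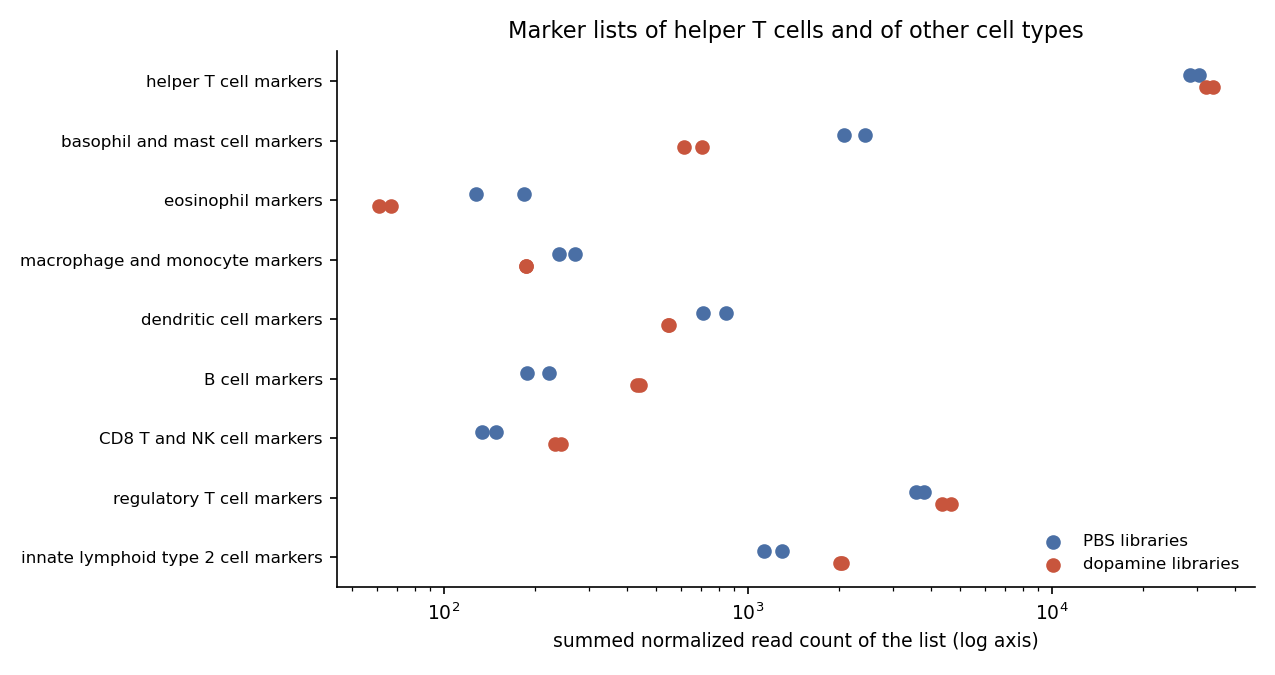
Summed normalized read count (log axis) of the measured genes of each marker list in the PBS libraries (blue) and dopamine libraries (red). Helper T cell markers, most of which other T cells share, are highest in every library. Basophil and mast cell markers lie at 2071 to 2426 with PBS and 615 to 705 with dopamine.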

How the data were processed

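Per the labels' protocols, total RNA of mouse Th2 cells went into TruSeq Stranded mRNA libraries. Per the submitters' processing notes, the tools were FastQC 0.11.2, TopHat2 2.0.13, HTSeq 0.6, DESeq2 and R 3.6.2, with the build mm10. How the counting treated strand, and with which annotation, was not given in the sources used here. Per the file headers, the deposited table holds the authors' DESeq2 comparison, with log2 fold changes and their errors, p-values before and after adjustment, and a Wald score. The 4 library columns hold a deposited signal, which is the read count divided by a size factor of the library (normalized count). In these columns 1 read equals 1.7 in PBS A and 0.766 to 0.971 in the others. Dividing by it gave whole reads for 100% of values (tolerance 0.01), and these recovered reads served the count tests. Columns numbered 2 and 3 stand against titles numbered 1 and 2, so columns were matched to groups only.

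Library pairs differed by more than sampling noise (2.64 for the PBS pair and 3.98 for the dopamine pair, as chi-square per degree of freedom). The test was limma-trend (limma 3.58.1, R 4.3.3) applied to log2(value + 1), with no filter, 2-sided, with Benjamini-Hochberg adjustment over 26207 genes. Its spread is pooled across genes (42.4 prior degrees of freedom). The test was checked on simulated data that held no shift of abundant genes between the groups, so that check does not cover the choice of scaling. The 15 alternatives used edgeR 4.0.16 and DESeq2 1.42.0 on recovered reads, limma-voom, other scalings, filters and pseudocounts, a block on the column number, and leaving out each library. The members and lists were chosen with earlier results of these data known. Named genes beyond the members are up to 3 per list and direction with the smallest p among those called, the partner chains, Il4, Il5, Il13, Cd3e and Cd4, and up to 2 per marker list by mean value. Outside this rule, Gata2, Ccr9, Arg1, Tigit, Ikzf2, Ctla4, Nt5e and the genes singled out for 0 reads were chosen after their values were seen. Gm13256 and Actr8 are named for their overlap with a member. Jund, Il31, Tpsb2, Ear1, Cd14 and Klra8 are not analysed here. A gene that the rule names is not reported here.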

Additional observations from a re-analysis of the deposited data

How the results depend on the processing

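Of 132 fold changes of the 9 genes under the 15 alternatives, 125 kept their call and 0 changed direction among called values. Those that lost it are given beside Stat6, Maf and Il1rl1. The number of genes called was 5577 in the limma fit and 3273 with DESeq2 on recovered reads. Without 1 library each in turn it was 2914 to 4299, with 2914 without PBS A and 3276 without dopamine B, the number of the 9 genes called was 6 to 7, and that of other pathway genes 41 to 52. With a filter at a mean of 5 CPM, 6 of the 9 were tested and 4 called, because Il1rl1, Il17rb and Pparg fell below it. Higher genes made up 67.1% of calls in the limma fit, 53.5% with edgeR, 39% with upper-quartile scaling and 36.3% with scaling on genes whose mean was 100 or more. With the column number as a replicate block, 6999 genes, 7 of the 9 and 65 other pathway genes were called. Same-numbered columns deviated together with a correlation of 0.214 across 8492 genes, but they share only a number, and with 2 libraries per group this does not establish pairs. Depth limits Pparg, Il17rb and Il1rl1 most, since the lowest total of a gene among the 9 was 116 reads.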
